A study of Mus musculus with 77 samples.

Results

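miR-150 is a small regulatory RNA of mature lymphocytes, and it was followed here as 1 of the 566 mouse miRNA probes of a miRNA table with 603 probes and 36 libraries. The member was chosen by name, as the probe mmu-miR-150. The study set microglia of C57BL/6 mice against other immune cells and against neural cells. All cells described here carried that strain label, and the labels of these libraries gave no genotype, no age in weeks and no number of animals. The microglia of the immune set, the astrocytes and the oligodendrocytes were labelled adult.

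The immune set held 24 libraries. Its 4 lymphocyte libraries came from spleen and were NK cells (NK1.1), B cells (B220), T cells (CD3/CD4, called CD4 T cells here) and regulatory T cells (CD4, with Foxp3 in the tissue label). Single libraries of blood cells labelled neutrophils (Ly6G) and of splenic dendritic cells (CD11b/CD11c) belonged to no group. The 4 CD11b/Ly6C libraries were Ly6C low and Ly6C high cells of bone marrow and of spleen. Macrophages of gut, heart, kidney, liver, lung, muscle and spleen gave 7 libraries. Adult microglia of brain, cerebellum, cortex, eye, hippocampus, olfactory bulb and spinal cord gave another 7 libraries. The neural set had 12 libraries in pairs: red pulp macrophages of the spleen, microglia, primary neurons of hippocampus and of cortex, and oligodendrocytes and astrocytes of adult animals. Each population of the immune set was measured once, so the spread within a group was that between populations, organs or sites.

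As background, miR-150 is scarce in lymphoid progenitors, accumulates in resting mature B and T cells and also shapes NK cell development in mice. Its best studied target is the mRNA of Myb, a transcription factor of progenitor cells, and it declines when mouse lymphocytes are activated. Lymphocytes are common in spleen, blood and most organs, and their RNA can therefore enter samples of sorted myeloid cells.

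The next sequences are shown because the results on miR-150 are read against them. The first is a second miRNA of lymphocytes and the second a miRNA of myeloid cells. The other 5 had the patterns most like miR-150. They are RefSeq mature sequences (GRCm38.p6), with the seed, bases 2 to 8, in capitals.
mmu-miR-342-3p, chr12:108658680-108658702, plus strand: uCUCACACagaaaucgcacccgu
mmu-miR-223-3p, chrX:96242884-96242905, plus strand: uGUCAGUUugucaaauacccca
mmu-let-7g-5p, chr9:106178846-106178867, plus strand: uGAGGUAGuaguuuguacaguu
mmu-let-7d-5p, chr13:48536078-48536099, minus strand: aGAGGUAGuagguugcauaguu
mmu-miR-15b-5p, chr3:69009775-69009796, plus strand: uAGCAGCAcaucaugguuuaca
mmu-miR-142a-3p, chr11:87756903-87756925, plus strand: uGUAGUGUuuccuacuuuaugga
mmu-miR-26b-5p, chr1:74394324-74394344, plus strand: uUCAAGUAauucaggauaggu
let-7g and let-7d share 1 seed, and the other 5 sequences each have a seed of their own.

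The assay, NanoString nCounter, counts barcodes bound to single RNA molecules without amplification. The value in the immune set is the deposited normalised signal, which is a whole number of counts multiplied by 1 factor per library. Recovered totals ran from 1741 to 75635 counts (median 5566), with 11 of 24 libraries under 5000. Lymphocyte libraries held 15598 to 75635 counts, CD11b/Ly6C libraries 5283 to 70671, macrophage libraries 1741 to 7148 and microglia libraries 2555 to 32277. The background limit of a library was the mean plus 2 SD of its 33 viral probes, which have no target in these cells. No immune value lay below 1 count, so a count of 1 cannot be told from a count of 0.

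Before the values of miR-150, 2 libraries need a remark on their labels. In the library labelled neutrophils miR-223, the leading miRNA of granulocytes, reached 326 (67 counts), whereas it ran from 1762 to 11442 in the 4 CD11b/Ly6C libraries. Hippocampal neurons 1 of the neural set had 3699 counts and a background limit of 259, and its log2 values correlated with those of hippocampal neurons 2 at r = 0.253 across the 566 miRNAs, which are not independent replicates. In the other 5 pairs of the neural set r was 0.680 to 0.872.

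In lymphocytes miR-150 was among the most abundant miRNAs of each library. CD4 T cells had a miR-150 value of 2575 (6230 counts), the highest of all 566 mouse miRNAs in that library. B cells had 1594 (6542 counts), second to let-7g, a let-7 family member found in most tissues. NK cells had 759 (837 counts), in rank 5, and regulatory T cells had 488 (532 counts), in rank 7. All 4 values lay far above their background limits, which were 2.95 to 5.21.

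The share of the summed mouse miRNA signal that was miR-150 followed the same order. It was 15.8% in CD4 T cells (95% Clopper-Pearson interval 15.4 to 16.1), 9.98% in B cells (9.75 to 10.2), 6.22% in NK cells (5.82 to 6.64) and 3.33% in regulatory T cells (3.06 to 3.62). These intervals cover counting error only. CD4 T cells exceeded B cells 1.61-fold (interval of the ratio from the counts 1.56 to 1.67), and NK cells exceeded regulatory T cells 1.55-fold (1.39 to 1.74). CD4 T cells exceeded regulatory T cells 5.27-fold (4.83 to 5.77). No neighbours among the 4 lymphocyte libraries had overlapping counting intervals, but each subset was 1 library, so a spread between mice could not be set against these ratios. In bulk samples fewer cells of a type and less RNA per cell cannot be told apart.

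let-7g was the highest miRNA in the other 3 lymphocyte libraries, with 2337 in B cells, 1885 in regulatory T cells and 1308 in NK cells. In CD4 T cells it had 1522, below miR-150. miR-342-3p, whose gene lies in an intron of Evl and which is also found in lymphocytes, ordered the subsets differently. Its values were 601 in B cells, 496 in NK cells, 161 in regulatory T cells and 85.1 in CD4 T cells. The ratio of miR-342-3p to miR-150 was therefore 0.654 in NK cells, 0.377 in B cells, 0.329 in regulatory T cells and 0.0331 in CD4 T cells.

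On a custom nCounter mRNA panel of 400 genes, 0 of 24 listed T, B and NK cell mRNAs were present. 3 other genes were chosen after their values were seen, so they describe the lymphocyte samples and cannot check their labels. Blnk, an adaptor of B cell receptor signalling, was 2937 in B cells, against 22.2 to 47.7 in the other 3 lymphocyte samples. Ccl5, a chemokine of NK and effector T cells, was 25761 in NK cells and 12.4 to 219 in the others. Il21r, the receptor of IL-21, was 1172 in B cells, 918 in CD4 T cells, 941 in regulatory T cells and 59.4 in NK cells. It was also 902 in the panel sample of dendritic cells. The labels do not say whether panel and miRNA samples were the same RNA.

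**Figure D1:**
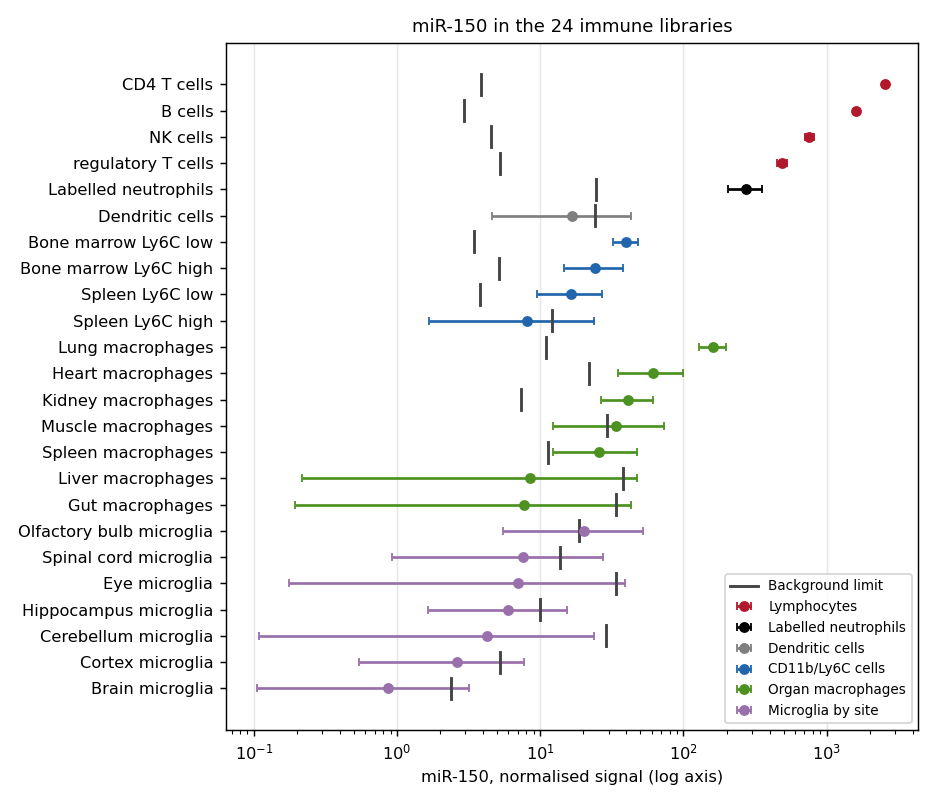
miR-150 normalised signal (log axis) in each of the 24 immune libraries, with the exact Poisson 95% counting interval (bar) and the background limit of the library (vertical tick). The 4 lymphocyte libraries lie between 488 and 2575, the library labelled neutrophils at 273 and lung macrophages at 160; the lower end of a bar at 1 count is not informative, because 0 and 1 counts are not separated.

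Against myeloid cells the difference was large. In lymphocytes miR-150 was 2575, 1594, 759 and 488 (mean 1354 ± 940, SD, n = 4). In the CD11b/Ly6C cells it was 39.6 in marrow Ly6C low, 24.2 in marrow Ly6C high, 16.5 in splenic Ly6C low and 8.07 in splenic Ly6C high cells (mean 22.1 ± 13.4, SD, n = 4). The groups did not overlap. On the log2(value + 10) scale, which understates changes of low values, lymphocytes were higher by 5.23 ± 0.57 (SE), and the adjusted p was 1.7e-10 (limma with Benjamini-Hochberg adjustment over 132 tested miRNAs). miR-150 had the largest positive difference of the 132, of which 6.82% were called in either direction and 2.27% as higher in lymphocytes. The exact permutation test of miR-150 alone gave a two-sided p of 0.0286, the smallest that 4 against 4 libraries allow, and 0.0514 after Benjamini-Hochberg adjustment over 9 comparisons.

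Organ macrophages were lower than lymphocytes as a group but ranged widely. Their miR-150 values ran from 7.68 over a median of 33.6 to 160 in lung (mean 48.3 ± 52.8, SD, n = 7), all below the lowest lymphocyte value. Lymphocytes were higher by 4.67 ± 0.51 (SE) on the same scale (limma adjusted p = 1.2e-10). In that comparison 68.9% of the tested miRNAs were called in either direction and 19.7% as higher in lymphocytes, and miR-150 again had the largest positive difference. Depth differed too, with at least 15598 counts in the lymphocyte libraries and at most 7148 in the macrophage libraries, and its part in the result was not tested. Among libraries with 5000 or more counts, which left 2 macrophage libraries, kidney and lung, the difference was 3.59 (adjusted p = 0.00036).

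Microglia were lowest. Their values ran from 0.870 in brain over a median of 6.00 to 20.3 in olfactory bulb (mean 6.94 ± 6.36, SD, n = 7), and 6 of the 7 lay under the background limit of their library. Lymphocytes exceeded them by 6.12 ± 0.51 (SE; limma adjusted p = 6.0e-15), while 22.0% of the miRNAs were called in either direction and 9.85% as higher in lymphocytes. The brain library, the deepest of the microglia with 32277 counts, held 2 counts of miR-150 among 30659 counts of mouse miRNAs. The share was 15.8% in CD4 T cells and 0.00649% in brain microglia (Clopper-Pearson interval 0.00079 to 0.0236).

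**Figure D2:**
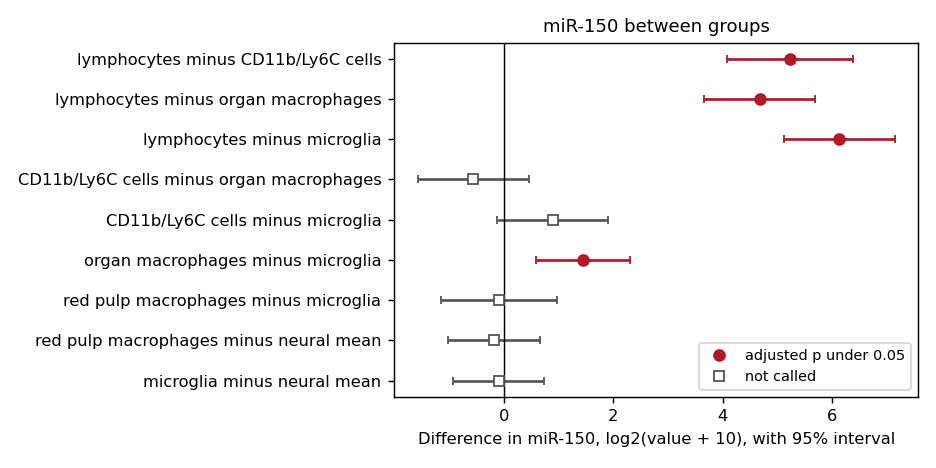
Difference in miR-150 between groups on the log2(value + 10) scale (x axis), with the 95% interval of the limma fit; the group named first is higher where the value is above 0. The 3 comparisons with lymphocytes lie between 4.67 and 6.12, and the 3 of the neural set span 0.

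A list of lymphocyte miRNAs that includes miR-150 was counted in the same comparisons. Of its 12 probes 10 were tested, and medians are given without miR-150. Against CD11b/Ly6C cells miR-150, miR-342-3p and miR-146a were higher in lymphocytes, where 2.27% of all tested miRNAs were called as higher. miR-10a was lower, where 6 of all 132 tested miRNAs were called as lower. The median difference of the 9 members without miR-150 was 0.22, against -0.14 over all tested miRNAs. miR-146a, which restrains innate and T cell activation, averaged 117 in lymphocytes and 15.3 in CD11b/Ly6C cells. Against macrophages 5 were higher (miR-150, miR-342-3p, miR-16, miR-29a and miR-181a), against 19.7% of all tested miRNAs. 1 member, miR-155, was lower, where 65 of all 132 tested miRNAs were called as lower. The median of the 9 was 1.04 there, against -0.85 over all tested miRNAs. Against microglia miR-150 was the 1 member of the list called as higher, against 9.85% of all tested miRNAs, and the median of the 9 was -0.03, against -0.47 over all. miR-342-3p averaged 336 in lymphocytes and 452 in microglia (difference -0.40, limma adjusted p = 0.60), and miR-181a, a regulator of T cell receptor sensitivity, averaged 229 and 266 in the same groups (difference -0.03, limma adjusted p = 0.96).

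Among the myeloid groups the differences were small or close to background. CD11b/Ly6C cells and organ macrophages overlapped, with a difference of -0.55 ± 0.51 (SE, 95% interval -1.56 to 0.46, limma adjusted p = 0.33), where 47.0% of the miRNAs were called. CD11b/Ly6C cells were 0.90 ± 0.51 (SE) above microglia (95% interval -0.12 to 1.91, limma adjusted p = 0.22), where 15.2% were called. On the recovered counts that difference was 2.84 and called (edgeR quasi-likelihood test, adjusted p = 0.023).

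Organ macrophages exceeded microglia by 1.45 ± 0.43 (SE; limma adjusted p = 0.017), in a comparison where 12.9% of the miRNAs were called. The 2 groups overlapped: gut and liver macrophages had 7.68 and 8.53, while olfactory bulb microglia had 20.3. Without the lung library the difference was 1.12 and no longer called (adjusted p = 0.053), and without brain microglia it was 1.35 (adjusted p = 0.051). A pseudocount of 50 gave 0.66 (adjusted p = 0.15), quantile normalisation 1.18 (adjusted p = 0.17), and testing all 566 miRNAs kept the difference but gave an adjusted p of 0.058. The call held at a larger difference with edgeR on the recovered counts (3.18, adjusted p = 0.0058), in libraries of 5000 or more counts (2.85, adjusted p = 0.0034) and with a pseudocount of 1 (2.35, adjusted p = 0.0025). The depth minimum left 2 macrophage libraries, kidney and lung, and 3 microglia libraries. It thus kept the lung library and dropped gut and liver, which overlapped microglia.

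Within the macrophages the lung library stood apart. It had 160 (86 counts), rank 17 of the 566 miRNAs and a share of 1.48% (Clopper-Pearson interval 1.19 to 1.82). Heart had 61.2 (16 counts), kidney 41.3 (24 counts), muscle 33.6 (6 counts) and spleen 25.7 (10 counts), all above their background limits. Liver and gut held 1 count each, and their values lay under their limits of 38.0 and 33.9. Lung exceeded heart 2.62-fold (interval of the ratio from the counts 1.53 to 4.79) and kidney 3.88-fold (2.45 to 6.39). The counting intervals of heart, kidney, muscle and spleen overlapped, so their order is not settled by the counts.

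Other cell markers also varied across these organs. The endothelial miR-126-3p, whose gene lies in Egfl7, was 0.73 to 1.81 in the 4 lymphocyte libraries. Among the macrophages it was 751 in lung, 572 in liver, 375 in heart, 119 in kidney, 118 in muscle, 23.0 in gut and 5.14 in spleen. The 2 endothelial probes gave a summed value of 0.97 to 2.89 in lymphocytes, while it was 7.71 to 800 in macrophages and 3.81 to 12.4 in CD11b/Ly6C cells. Lung macrophages thus had the highest miR-126-3p and the highest miR-150 of the 7 organs, while liver had a high miR-126-3p with miR-150 at 1 count. The part of other cells in these values was not tested.

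Within the CD11b/Ly6C cells the bone marrow libraries had more miR-150 than their splenic counterparts. Marrow Ly6C low cells had 39.6 (96 counts, rank 38, share 0.176%) and splenic Ly6C low cells 16.5 (16 counts), a ratio of 2.40 (interval 1.40 to 4.36). Marrow Ly6C high cells had 24.2 (19 counts) and splenic Ly6C high cells 8.07 (3 counts, under the limit of 12.1), a ratio of 2.99 (interval 0.881 to 15.8). The 2 marrow libraries differed 1.64-fold, low over high (interval 0.994 to 2.84). Only the first of these 3 intervals excludes 1, and each population was 1 library.

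The highest miR-150 outside the lymphocytes was in the library labelled neutrophils. It had 273 (56 counts), rank 5 and a share of 2.16% (Clopper-Pearson interval 1.63 to 2.79), well above its limit of 24.5. It exceeded lung macrophages 1.70-fold (interval 1.19 to 2.41) and marrow Ly6C low cells 6.89-fold (4.86 to 9.68). Regulatory T cells exceeded it 1.79-fold (1.36 to 2.40). This library was shallow, with 2827 counts in all. Dendritic cells had 16.8 (4 counts), under their limit of 24.3.

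The panel sample labelled Ly6G neutrophils, which may not be the same RNA as the miRNA library of that label, had 374 of Csf3r, the receptor of granulocyte colony-stimulating factor. Splenic and marrow Ly6C low cells had 2626 and 1319, and splenic and marrow Ly6C high cells had 280 and 191, so its raw value lay between the 2 kinds. Its Blnk was 695, which is 23.7% of the B cell value, and its Il21r was 267, which is 26.5% of the mean of B, CD4 T and regulatory T cells. Its Fcrls, a gene of mouse microglia, was 294, and the median of all 400 panel genes in that sample was 107. That median was 61.4 and 7.18 in splenic and marrow Ly6C low cells, and 39.2 and 9.14 in splenic and marrow Ly6C high cells. The raw order of Csf3r does not allow for this higher median. The lowest panel value was 26.7 in the sample labelled neutrophils and 0.652 in B cells, which also limits the 2 percents. The 7 microglia samples of the panel also had Blnk at 451 to 2260 and Il21r at 255 to 616.

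The level of miR-150 in each myeloid library can also be given as a percent of the lymphocyte mean, if values are taken as comparable between libraries. These are point values and not limits. The CD11b/Ly6C libraries had 0.596% to 2.92% of the lymphocyte mean of 1354. Macrophages had 0.567% in gut, 0.630% in liver, 1.90% in spleen, 2.48% in muscle, 3.05% in kidney, 4.52% in heart and 11.8% in lung. Gut and liver macrophages rest on 1 count each, and the upper ends of their counting intervals came to 3.16% and 3.51%. The library labelled neutrophils had 20.1%, dendritic cells 1.24% and the 7 microglia libraries 0.0642% to 1.50%.

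The percent depends on which lymphocyte is taken. Lung macrophages had 6.23% of the CD4 T cell level but 32.8% of the regulatory T cell level. For the library labelled neutrophils the same figures were 10.6% and 55.8%, and for marrow Ly6C low cells 1.54% and 8.10%. For brain microglia they were 0.0338% and 0.178%. miR-150 made by the myeloid cells themselves would count toward these figures as well, and the share that came from lymphocytes was not tested.

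miR-342-3p was set beside miR-150 as a second lymphocyte miRNA. If all miR-150 of a library came with the miR-342-3p that the lymphocyte ratios give, lung macrophages would hold 5.30 to 105 of miR-342-3p, and they held 41.0. The library labelled neutrophils would hold 9.01 to 178, and it held 19.5 (4 counts, under its limit). Of the 10 libraries outside the lymphocytes with miR-150 above the limit, 5 had miR-342-3p within this range (these 2, heart macrophages and both marrow Ly6C populations). The other 5 lay above it, and none lay below. miR-342-3p was under its own limit in heart macrophages (11.5, 3 counts) and muscle macrophages (28.0, 5 counts) as well, so the places of these 3 libraries in the tally are not settled. Kidney macrophages, which lay above the range, held 48.2 where it ended at 27.0. A place below the range could not occur where its lower end was under the value of 1 count, the lowest value of a library. In heart macrophages, for example, the lower end was 2.02 and 1 count was 3.82, and in muscle macrophages they were 1.11 and 5.60. Of the 10 libraries, only 3 had a lower end above 1 count. It was 1.31 against 0.412 in marrow Ly6C low cells, 5.30 against 1.86 in lung macrophages and 9.01 against 4.87 in the library labelled neutrophils. For the rest of the 10 the absence of a place below was fixed in advance and is not informative.

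Microglia parted the 2 miRNAs most clearly. Cortex microglia had miR-342-3p at 1013 and miR-150 at 2.62 (3 counts), a ratio of 387. Brain microglia had 938 and 0.870 (2 counts), a ratio of 1078. Both miR-150 values lay under their background limits, 5.26 and 2.38, so the size of these ratios is not settled. As a percent of the lymphocyte mean, miR-342-3p was 45.7% to 302% in the 7 microglia libraries, where miR-150 was at most 1.50%.

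**Figure D3:**
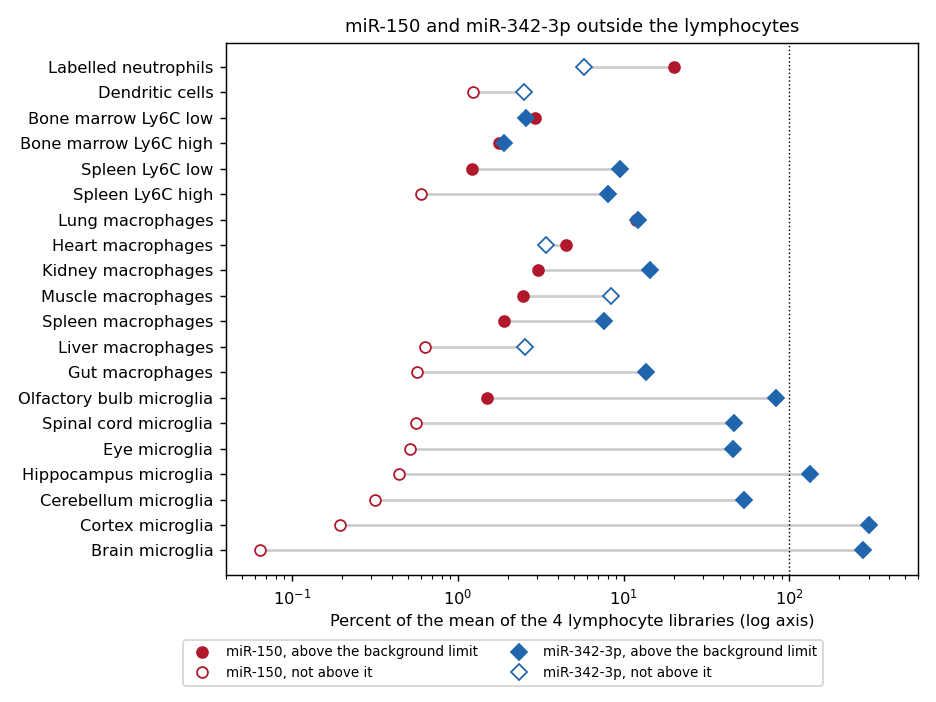
miR-150 (circles) and miR-342-3p (diamonds) in the 20 immune libraries outside the lymphocytes, each as a percent of the mean of the 4 lymphocyte libraries (log axis); open symbols lie at or below the background limit of the library. In lung macrophages both stand near 12%, and in cortex and brain microglia they lie farthest apart.

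The reverse check used miR-223 in the lymphocyte libraries. It was 242 in NK cells (267 counts), 13.4 in B cells, 12.0 in CD4 T cells and 2.75 in regulatory T cells, which is 4.89%, 0.271%, 0.242% and 0.0555% of the mean of the CD11b/Ly6C cells. NK cells alone were above 1%. The ratio of miR-150 to miR-223 was 215 in CD4 T cells and 3.13 in NK cells, whereas it was 0.00346 to 0.00756 in the 4 CD11b/Ly6C libraries. In lung macrophages it was 0.181, and in the library labelled neutrophils 0.836.

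**Figure D4:**
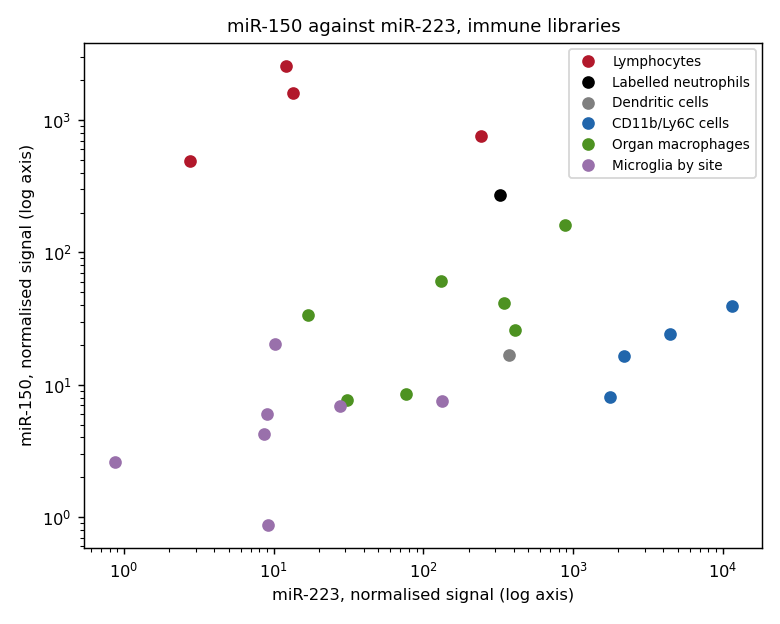
miR-150 against miR-223 in the 24 immune libraries (normalised signal, both axes log), 1 point per library and coloured by group. Lymphocytes lie highest, with miR-223 at 2.75 to 242, CD11b/Ly6C cells lie farthest to the right, and the library labelled neutrophils lies between them at 326 for miR-223 and 273 for miR-150.

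In the order of all 24 immune libraries the counting intervals of 17 of the 23 neighbouring pairs overlapped. The 6 pairs that did not overlap were the first 6, from CD4 T cells down to the step from lung to heart macrophages. Below lung macrophages the order rests on 1 to 96 counts per library.

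The miRNAs most like miR-150 over the 24 immune libraries, by Pearson r of log2(value + 10), were let-7g (r = 0.647), miR-15b (0.634), let-7d (0.607), miR-142-3p (0.591) and miR-26b (0.589). Over the 20 libraries without lymphocytes the same values were 0.089, 0.318, 0.150, -0.014 and 0.046. miR-15b, of the miR-15 and miR-16 family that represses cell cycle genes, was 930 in CD4 T cells and 854 in regulatory T cells but only 20.9 to 49.2 in microglia. Unlike miR-150, it was also high in the CD11b/Ly6C libraries, at 234 to 1044. Lymphocytes minus CD11b/Ly6C cells gave 0.25 for miR-15b (limma adjusted p = 0.97). miR-142-3p, a haematopoietic miRNA, was 1005 in B cells and 29.2 in the library labelled neutrophils. The least alike were miR-125b-5p (r = -0.669), miR-338-3p (-0.629) and miR-142-5p (-0.616). miR-125b-5p ran from 0.83 to 5.44 in lymphocytes and from 76.7 to 997 in microglia. The points share library depth, and miR-150 had r = 0.498 with the log2 total counts of the 24 libraries.

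In the neural set, which was scaled separately and cannot be set against the values above, miR-150 was above the background limit in 3 of the 12 libraries. Red pulp macrophages had 38 and 49, under limits of 113 in both. Microglia had 51 and 42, under limits of 74.2 and 75.1. Astrocytes had 105 and 95, above their limits of 58.1 and 69.1, in ranks 36 and 47. Oligodendrocytes had 50 and 77, and the second value just passed its limit of 76.6. Cortical neurons had 55 and 22, and hippocampal neurons had 16 and 39, all under their limits.

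Both astrocyte values exceeded the other 10, a description that was not tested. The astrocyte libraries held 52 and 35 counts of miR-150, and their shares were 0.265% and 0.277%. The 2 endothelial probes summed to 296 and 440 in astrocytes and to 151 and 162 in oligodendrocytes, with 1 probe above the limit in each library. In microglia, red pulp macrophages and both kinds of neurons they summed to 66 to 117, with 0 above the limit. The part of other cells in the astrocyte values of miR-150 was not tested. Of the neural markers, miR-9 was 2849 and 1011 in astrocytes, and miR-338-3p was 547 and 517 in oligodendrocytes. Other values did not part the cells as clearly. miR-9 was also 905 in hippocampal neurons 2. miR-219 of the same list was 106 and 158 in oligodendrocytes, but 376 in hippocampal neurons 1 and 119 in cortical neurons 2. The neuronal miR-124 was 139 and 30 in cortical neurons and 16 and 331 in hippocampal neurons, and 2 of these 4 values lay under the limit of their library.

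**Figure D5:**
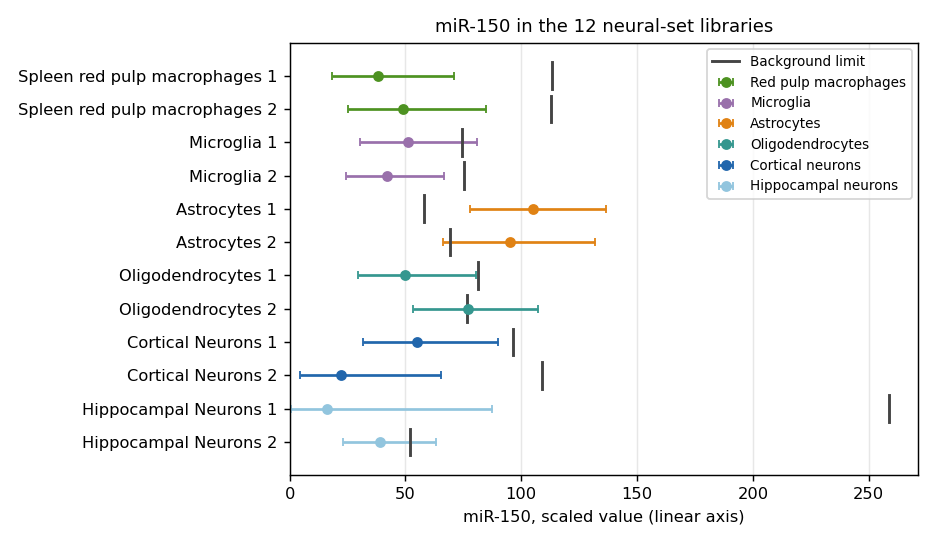
miR-150 scaled value (linear axis) in the 12 libraries of the neural set, with the exact Poisson 95% counting interval (bar) and the background limit of the library (vertical tick). Red pulp macrophages (38 and 49) and microglia (51 and 42) lie below their limits, and both astrocyte libraries (105 and 95) lie above theirs.

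No difference in miR-150 was detectable between the groups compared in this set. Red pulp macrophages differed from microglia by -0.08 ± 0.51 (SE, 95% interval -1.14 to 0.98, limma adjusted p = 0.93), and 1.77% of the 566 miRNAs were called. They differed from the mean of the 4 neural cell types by -0.17 ± 0.40 (SE, 95% interval -1.01 to 0.66, limma adjusted p = 0.89). There limma called 0% of the miRNAs, while 53 of 566 had an unadjusted p under 0.05. Microglia differed from that mean by -0.09 ± 0.40 (SE, 95% interval -0.93 to 0.75, limma adjusted p = 0.98), and 1.94% were called. Without hippocampal neurons 1 the last 2 differences were -0.29 and -0.20 (limma adjusted p = 0.46 and 0.94), and the calls in them numbered 63 and 31 miRNAs in place of 0 and 11. The first of these intervals runs from 0.454-fold to 1.97-fold on the scale of value + 10.

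Red pulp macrophages in this set were thus under their background limits. They held 10 and 12 counts of miR-150, and their viral probes averaged 16.0 and 13.8 counts. Spleen macrophages of the immune set had 25.7 (10 counts) against a limit of 11.3, and their viral probes averaged 1.67 counts. Background in counts thus differed between the sets, so passing the limit in 1 set cannot be set against the other. miR-342-3p in the same neural set was 62 and 69 in red pulp macrophages and 900 and 993 in microglia, a difference of -3.66 ± 0.55 (SE, red pulp minus microglia, limma adjusted p = 0.00048). miR-155, induced in activated macrophages, was 858 and 700 in red pulp macrophages and 312 and 535 in microglia.

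Over the 12 libraries the miRNAs most like miR-150 were miR-145 (r = 0.782), miR-125b-5p (0.758), miR-204 (0.711), let-7e (0.671) and miR-151-5p (0.645). The least alike were miR-409-5p (-0.923), miR-680 (-0.918) and miR-495 (-0.883). In astrocytes these 3 ran from 14 to 36, under the limits of 58.1 and 69.1. In red pulp macrophages they ran from 28 to 81, under limits of 113. In microglia they ran from 34 to 56, under the limits of 74.2 and 75.1. miR-145 also lay under the limits in red pulp macrophages (46 and 61) and in microglia (34 and 39). miR-204, abundant in the retinal pigment epithelium, was 428 and 901 in astrocytes and 56 to 165 in the other 10 libraries. Over the same 12 libraries miR-150 had r = 0.821 with the log2 total counts and -0.671 with the viral mean. It was above the background limit in only 3 of them. The part of depth and background in these likenesses was not tested.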

How the data were processed

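The miRNA libraries were read from 1 deposited table. For the immune set the authors deposited a normalised signal, counts multiplied by 1 factor per library, and for the neural set a score, scaled counts rounded to whole numbers. The scaling method was not given in the sources used here. Per the labels' protocols a mirVana kit was used for total RNA. The mRNA panel was deposited as a normalised signal too. Its neural samples and the array profiles were not used.

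Counts were recovered as whole multiples of 1 step: 99.7% to 100% of immune values and 92.7% to 100% of neural values came out whole, within 0.1 of a count or the rounding of the value. Immune totals were 1741 to 75635 counts and neural totals 3699 to 20519. Columns without a sample in the labels numbered 0, and no 2 libraries held identical values.

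log2(value + 10) was fitted with limma 3.58.1 (lmFit, eBayes with a trend), 1 fit per set, with Benjamini-Hochberg adjustment over the miRNAs above 20 in at least 4 of 22 immune libraries (132 miRNAs) or 2 of 12 neural libraries (566). Dendritic cells and neutrophils, with 1 library each, were in no fit. A call was an adjusted p under 0.05. Alternatives included edgeR 4.0.16 on the recovered counts, other pseudocounts, minima and scalings, leaving out each library and exact permutation. Intervals were exact Poisson and Clopper-Pearson intervals (scipy). The fit was tested on simulated data.

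Named miRNAs were miR-150, the 5 most and 3 least alike in each set, the highest of each lymphocyte library and members of 6 marker lists. The member, the lists and the comparisons were chosen with earlier results of these data known. Apart from the numbered pairs of the neural set, nothing in the labels marks repeats of 1 population, and p-values measure the spread between these libraries, which may be technical.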

Additional observations from a re-analysis of the deposited data

Results flagged for a closer look

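In the organ macrophages the lung library lay apart, with a miR-150 value of 160 and a share of 1.48%. Its gap to the next library was 0.650 of the range of the 7 values and 0.706 of the range of the 7 shares, above Dixon's critical value for 7 samples. In the microglia the olfactory bulb library passed the same rule, with a value of 20.3 (4 counts) and a share of 0.165%, and gaps of 0.655 and 0.580 of the range. Its counting interval (5.53 to 52.0) overlapped that of the next site, spinal cord (0.916 to 27.3). The intervals of lung and heart macrophages did not overlap. In all, 16 ends of groups were examined, and chance marks about 1 in 20 groups.

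The library labelled neutrophils, which entered no comparison between groups, had a miR-150 value of 273 against a background limit of 24.5.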

How the results depend on the processing

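The 3 comparisons with lymphocytes kept their direction under all 34 alternatives each, and their call in every alternative fit. In the exact permutation test of miR-150 alone the difference from CD11b/Ly6C cells had an unadjusted p of 0.0286 and 0.0514 after Benjamini-Hochberg adjustment over 9 comparisons. The other 2 had 0.0136 after it. Their differences ranged from 4.04 to 5.91 against CD11b/Ly6C cells, from 3.59 to 5.57 against organ macrophages and from 4.37 to 8.75 against microglia, and from 4.82 to 5.62, 4.27 to 5.07 and 5.72 to 6.51 with 1 library left out. CD11b/Ly6C cells minus organ macrophages stayed uncalled under 34 alternatives (-1.64 to -0.10).

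Organ macrophages minus microglia (1.45) lost the call with a pseudocount of 50 (0.66, adjusted p = 0.15), under quantile normalisation (1.18, adjusted p = 0.17) and with no minimum (1.45, adjusted p = 0.058). With 1 library left out it ran from 1.12 to 1.67, and it lost the call without lung macrophages and without brain microglia. It kept the call, over 1.5 times as large, with edgeR (3.18), in libraries of 5000 or more counts (2.85) and with a pseudocount of 1 (2.35). In the second of these, kidney and lung were the only macrophage libraries left. CD11b/Ly6C cells minus microglia (0.90) was called with edgeR (2.84, adjusted p = 0.023) and in the exact permutation test (0.90) had an unadjusted p of 0.024, which was 0.0514 after the same adjustment. The cause was not tested.

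In the neural set the sign of uncalled differences turned in 7 cases. With values raised to the background limit red pulp macrophages minus microglia became 0.54 and red pulp macrophages minus neural mean 0.17. With 1 library left out the first ran from -0.23 to 0.067, the second from -0.32 to -0.023 and microglia minus neural mean from -0.22 to 0.037. Same-numbered libraries did not deviate together (correlation -0.25 to 0.08 over 15 pairs of groups), so the numbers were not taken to pair them. The replicate block left the 3 differences at -0.08, -0.17 and -0.09 (limma adjusted p = 0.94, 0.89 and 0.98). A minimum of 100 left miR-150 untested in this set.

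The other scalings moved the median of all tested miRNAs by up to 0.67 (quantile normalisation, lymphocytes minus organ macrophages). Relative to that median miR-150 differed there by 4.79, against 5.53 before. Counts of called miRNAs, which give the background of each comparison, depended on the settings: 6 to 15 (main 9), 25 to 398 (main 91) and 12 to 47 (main 29) for lymphocytes against CD11b/Ly6C cells, organ macrophages and microglia. They were 10 to 189 (main 62), 11 to 27 (main 20) and 8 to 25 (main 17) for CD11b/Ly6C cells against organ macrophages and microglia and for organ macrophages against microglia. In the neural set they were 1 to 30 (main 10), 0 to 63 (main 0) and 1 to 48 (main 11), in the order of the report.

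The share of miR-150 without the miR-34c probe, which was the highest in 13 immune libraries (an alternative chosen after seeing the data), stayed within its counting interval in 32 of 36 libraries. The other 4 were the lymphocytes, where it became 16.3% in CD4 T, 10.3% in B, 6.86% in NK and 3.71% in regulatory T cells. Over the probes above the limit, less the viral mean, 7 of 17 shares moved beyond it, among them the library labelled neutrophils (4.02%) and lung macrophages (1.86%). Less the viral mean, the percent of the lymphocyte mean moved beyond its counting interval in 6 of 20 libraries and was 11.5% in lung and 19.3% in the library labelled neutrophils. At 1 to 4 counts per library in 7 microglia libraries, depth limits any order among them.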
